A study of Mus musculus with 249 samples.

Results

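The animals described here are F2 mice that stood at the 2 ends of the brain level of Ccr6, a gene of chromosome 17. They were chosen by their measured Ccr6 value on a log10 scale, relative to a pool of all animals: 69 low animals lay below -0.29, 58 high animals lay above 0.14, and 121 middle animals lay between these limits and served as a dose check. These 248 animals were taken from 249, and animal 144 was left out because its array stood apart, with an SD over probes of 0.392, against at most 0.258 on any other array. The animals came from an intercross of C57BL/6J and C3H/HeJ parents, and both parental strains carried the ApoE null background, so all 3 groups lacked ApoE. Females and males were included, and all ate a high fat Western diet between 8 and 24 weeks of age. Brain RNA was set against 1 common pool that held an equal part of each sample, on 1 array with 2 colours for each animal. The labels state no sex, genotype or array batch for the individual animal. The groups are therefore defined by a transcript level and not by a genotype, and bulk brain RNA cannot separate fewer cells of a type from less RNA per cell.

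Ccr6 is the receptor for the chemokine Ccl20 and is known from B cells, Th17 cells and some dendritic cells. In an F2 intercross, the parental chromosomes are recombined, and genes that lie close together on a chromosome are mostly inherited together from the same parental strain. The proximal part of mouse chromosome 17 holds the t-complex, a region known for suppressed recombination in wild haplotypes and for genes of sperm function, and farther along lies the major histocompatibility complex (MHC), which presents peptides to T cells.

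Promoter sequences are shown for Ccr6 and for 3 of the genes of chromosome 17 that differed most between the low and high animals, Wtap and Tcte3 being lower and Decr2 higher in low animals. Each window covers 250 bases before and 50 bases after the first start that RefSeq lists, read on the gene's strand from build GRCm38.p6. The Ccr6 window is chr17:8235793-8236092 on the + strand. The Wtap window is chr17:12992494-12992793, the Tcte3 window is chr17:15041510-15041809 and the Decr2 window is chr17:26090115-26090414, all on the - strand. Capitals mark the letters CCAAT (the CCAAT box) and GGGCGG (the GC box), read on either strand, and the letters TATAAA were searched as well.
Ccr6: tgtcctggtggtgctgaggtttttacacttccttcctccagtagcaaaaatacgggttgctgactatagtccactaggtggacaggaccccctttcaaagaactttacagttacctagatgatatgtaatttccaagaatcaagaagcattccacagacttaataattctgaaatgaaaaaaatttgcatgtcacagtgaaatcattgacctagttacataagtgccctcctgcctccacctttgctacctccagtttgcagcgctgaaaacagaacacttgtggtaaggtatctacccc
Wtap: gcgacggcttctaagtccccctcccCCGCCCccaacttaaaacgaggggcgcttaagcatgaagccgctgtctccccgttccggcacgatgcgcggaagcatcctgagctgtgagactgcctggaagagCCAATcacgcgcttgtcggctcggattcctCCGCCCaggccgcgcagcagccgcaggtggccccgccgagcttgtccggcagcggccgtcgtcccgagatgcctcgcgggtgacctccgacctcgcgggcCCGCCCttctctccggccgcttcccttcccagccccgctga
Tcte3: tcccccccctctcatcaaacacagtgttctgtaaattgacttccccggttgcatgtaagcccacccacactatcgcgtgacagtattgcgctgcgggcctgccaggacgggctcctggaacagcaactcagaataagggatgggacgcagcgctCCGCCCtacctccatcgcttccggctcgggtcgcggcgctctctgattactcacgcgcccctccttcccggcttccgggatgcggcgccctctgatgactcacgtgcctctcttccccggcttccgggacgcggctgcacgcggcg
Decr2: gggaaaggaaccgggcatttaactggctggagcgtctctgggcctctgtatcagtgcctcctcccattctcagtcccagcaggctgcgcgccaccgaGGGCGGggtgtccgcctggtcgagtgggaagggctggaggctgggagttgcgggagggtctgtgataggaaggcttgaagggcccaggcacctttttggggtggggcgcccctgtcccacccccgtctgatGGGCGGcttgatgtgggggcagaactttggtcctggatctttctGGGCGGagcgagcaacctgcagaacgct
None of the 3 motifs occurred in the Ccr6 window. Wtap held 1 CCAAT and 3 GGGCGG, Tcte3 held 1 GGGCGG and Decr2 held 3 GGGCGG, with no overlap between matches. Of 32851 mouse promoters of the same length, 37.4% held CCAAT, 35.7% held GGGCGG and 13.6% held TATAAA on either strand.

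Ccr6 was measured by 1 probe, and its values chose the groups, so they are given as a description without a test. The log10 ratio to the pool ranged between -0.838 and -0.412 in low animals (median -0.626), between -0.228 and 0.134 in middle animals (median 0.0254), and between 0.162 and 0.442 in high animals (median 0.249). The means were -0.607 ± 0.0917 (SD, n = 69) in low, 0.0239 ± 0.0519 (n = 121) in middle and 0.254 ± 0.0580 (n = 58) in high animals. On the linear scale the low animals averaged 0.253 times the pool, the middle animals 1.06 times and the high animals 1.81 times. The low minus high difference of the means was -0.861 log10 units, which is 7.27-fold lower in low animals. The linear mean of the middle animals lay near the linear midpoint of the outer groups, at 1.03. On the log10 scale it did not: that midpoint was -0.177, below the middle mean of 0.0239. Under these limits low animals made up 27.8% of the 248, middle animals 48.8% and high animals 23.4%.

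The lower limit fell in a wide gap and the upper limit in a narrow one. The highest low animal was at -0.412 and the lowest middle animal at -0.228, followed by the next middle animal at -0.0889. At the other limit the highest middle animal was at 0.134 and the lowest high animal at 0.162, and 18 animals lay within 0.05 of that limit. The middle and high groups are thus separated by a limit in a continuous run of values, while the low group stood clear of the rest.

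**Figure D1:**
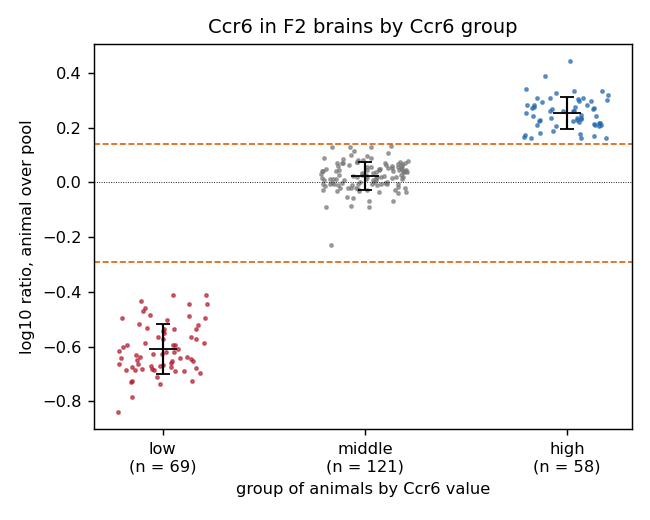
Log10 ratio of Ccr6 to the pool in each animal, for the low (n = 69), middle (n = 121) and high (n = 58) groups, with the limits at -0.29 and 0.14 that set the groups. The low animals lie at or below -0.412, apart from the rest, and the middle and high animals meet at the upper limit.

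The spread of the arrays and the Y-linked transcripts were set side by side in the 3 groups. The median SD of an array's genes was 0.0813 in low, 0.0836 in middle and 0.0817 in high animals. The highest was 0.229 in low, 0.252 in middle and 0.122 in high animals, so the widest arrays lay outside the high group. The Y-linked transcript Eif2s3y fell in its upper component in 32 of 69 low, 58 of 121 middle and 31 of 58 high animals. Array medians lay between -0.00627 and 0.0250. The correlation over probes between 2 arrays had a median of 0.314 over 30628 pairs and reached -0.344 at its lowest, with 6 pairs under -0.3. The sign of all arrays was kept as deposited, because the labels name a single dye order. Whether any array was reversed was not tested. The animal number, the only order in the labels, split the low animals 35 and 34 and the high animals 32 and 26 between the lower and upper numbers.

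The genes that differed between low and high animals lay on chromosome 17 in a far larger share than elsewhere, in both directions. In the low animals 51 of its 511 measured genes other than Ccr6 were higher and 42 were lower than in the high animals, at an adjusted p under 0.05 in limma with Benjamini-Hochberg adjustment over 11507 genes. These 93 genes are 18.2% of the chromosome's, 9.98% higher and 8.22% lower. On the other chromosomes 91 of 10199 genes passed, 50 higher (0.49%) and 41 lower (0.402%) in the low animals, which is 0.892% together. At an unadjusted p under 0.05 in the same fit there were 1389 of these 10199 genes (13.6%), beside 173 of the 511 of chromosome 17. The cause of the differences outside chromosome 17 was not tested. Over all 11507 genes tested 199 passed, or 1.73%, and of 9609 probes without a single gene symbol 160 passed, or 1.67%, with adjustment over all probes. With a fold of at least 1.2 required as well, 39 genes of chromosome 17 (7.63%) and 15 of the other chromosomes (0.147%) passed. The median absolute difference was small in both sets, at 0.0119 log10 units for chromosome 17 and 0.00878 for the other chromosomes.

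Along the chromosome, changed genes lay among the few measured genes before Ccr6 and over a long stretch after it. Few lay at the distal end of the chromosome. Places are counted over measured genes from Ccr6, which is gene 15 in the order, and negative places lie before it. Of the 14 genes before Ccr6, 5 passed, and of the first 25 after it 9 passed. Over the bins of 25 genes the share was highest at places 76 to 100, where 12 of 25 genes passed, and at places 51 to 75, where 10 of 25 passed, while only 1 of 25 passed at places 26 to 50 and 1 of 25 at places 226 to 250. In all, 91 of the 93 genes lay at or before place 375. Past it 2 of 121 genes passed, Xdh and Ltbp1, of which Xdh (place 448), the enzyme that makes uric acid from xanthine, is named because of its count and was chosen after its values were seen. Xdh was 1.33-fold higher in the low animals (adjusted p = 7.32e-05 in limma), and Ltbp1 (place 453), a protein that holds latent TGF-beta in the matrix, was 1.12-fold lower (adjusted p = 0.00726).

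**Figure D2:**
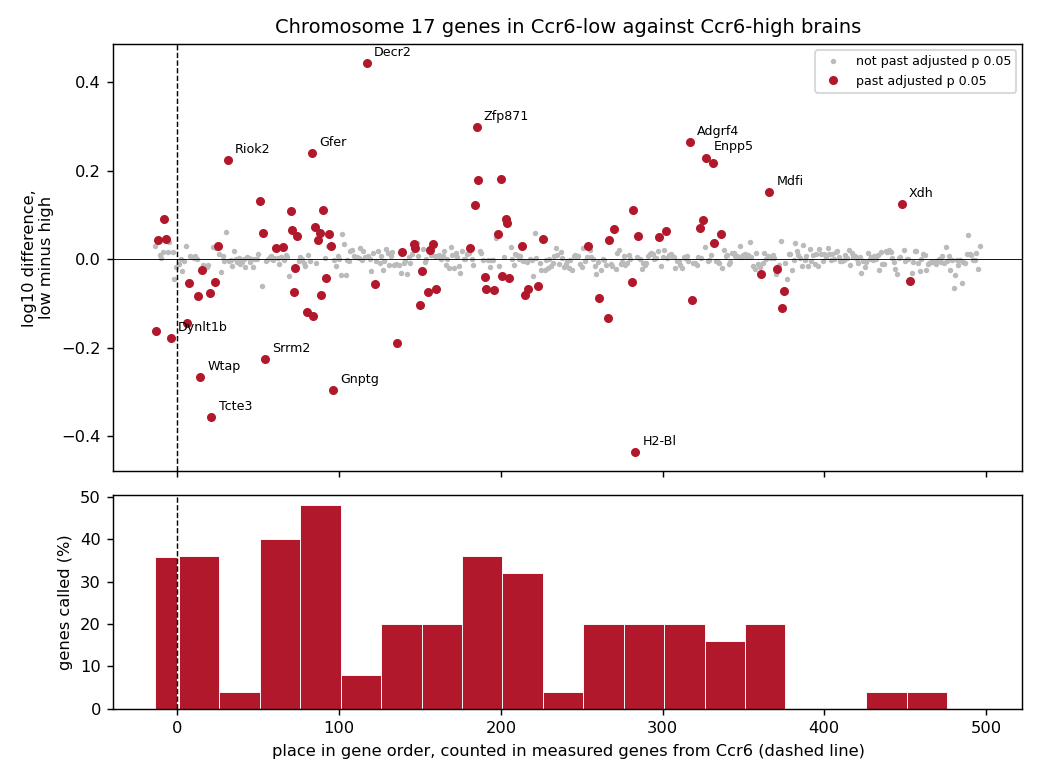
Difference in log10 ratio, low minus high animals, of each measured gene of chromosome 17 by its place from Ccr6 in gene order (in genes, negative before Ccr6). Called genes lie on both sides of 0 and extend to place 375, and 2 of 121 genes past that place were called.

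Of the 20 measured genes nearest to Ccr6, 10 on either side, 5 passed, beside 18.2% of all genes of the chromosome. The nearest on one side is Rnaset2b, an RNA-cleaving enzyme of the lysosome, with a log10 mean of -0.0267 in low and -0.00927 in high animals (adjusted p = 0.296 in limma). On the other side, Mpc1, a subunit of the mitochondrial pyruvate carrier, averaged 0.00572 in low and 0.0169 in high animals (adjusted p = 0.717). Among the 5, the lipid phosphatase Synj2 (place -8) was 1.23-fold higher and Serac1 (place -7), which takes part in lipid exchange between mitochondria and the endoplasmic reticulum, was 1.11-fold higher in low animals. The other 3 were lower: Dynlt1b (place -4), a light chain of cytoplasmic dynein, by 1.5-fold, Plg (place 6), the precursor of plasmin, by 1.40-fold, and Slc22a2 (place 7), an organic cation transporter, by 1.13-fold. Dynlt1b has near-identical copies, so its probe may read more than 1 gene.

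Wtap had the smallest adjusted p of all genes (5.25e-65 in limma). It lies at place 14 and encodes a subunit of the complex that methylates adenosines in mRNA. Its log10 ratio ranged between -0.317 and 0.0308 in low animals (median -0.172), between -0.221 and 0.117 in middle animals (median 0.0135), and between -0.122 and 0.170 in high animals (median 0.110). All 69 low animals were below the high median and the ranges of the groups still overlapped. The low mean was -0.165 ± 0.0737 and the high mean 0.101 ± 0.0509, which is 1.85-fold lower in low animals. Its 2 probes disagreed, with low minus high differences of -0.512 and -0.0206, so the value of the gene rests on 1 of them.

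Tcte3 (place 21), a t-complex gene for a dynein light chain of sperm and cilia, was 2.28-fold lower in the low animals (adjusted p = 1.98e-50). Its log10 ratio ranged between -0.391 and 0.108 (median -0.242) in low, -0.292 and 0.268 (median 0.00218) in middle and -0.0829 and 0.361 (median 0.157) in high animals. No low animal reached the high median and no high animal fell to the low median. Gnptg (place 96), the gamma subunit of the enzyme that marks lysosomal enzymes for delivery, averaged -0.158 ± 0.106 in low, 0.0131 ± 0.0786 in middle and 0.138 ± 0.0575 in high animals. It was 1.98-fold lower in low animals (adjusted p = 1.98e-50), and high animals lay between 0.00268 and 0.251, against -0.444 to 0.126 for low animals.

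The largest fold among the called genes of chromosome 17 ran the other way. Decr2 (place 117), a peroxisomal reductase in the breakdown of unsaturated fatty acids, was 2.77-fold higher in the low animals (adjusted p = 6.32e-48). It ranged between -0.158 and 0.331 (median 0.168) in low, -0.569 and 0.322 (median 0.00553) in middle and -0.517 and 0.0663 (median -0.350) in high animals. Gfer (place 83), a sulfhydryl oxidase of the mitochondrial intermembrane space, was 1.74-fold higher, with means of 0.0958 ± 0.0674 in low, 0.00244 ± 0.0741 in middle and -0.145 ± 0.0695 in high animals (adjusted p = 3.39e-47). Riok2 (place 31), a kinase of small ribosomal subunit maturation, was 1.68-fold higher, with means of 0.105 ± 0.0700 in low, 0.00499 ± 0.0774 in middle and -0.120 ± 0.0688 in high animals (adjusted p = 2.78e-41). In Decr2, Gfer and Riok2, no low animal lay below the high median and no high animal lay above the low median.

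**Figure D3:**
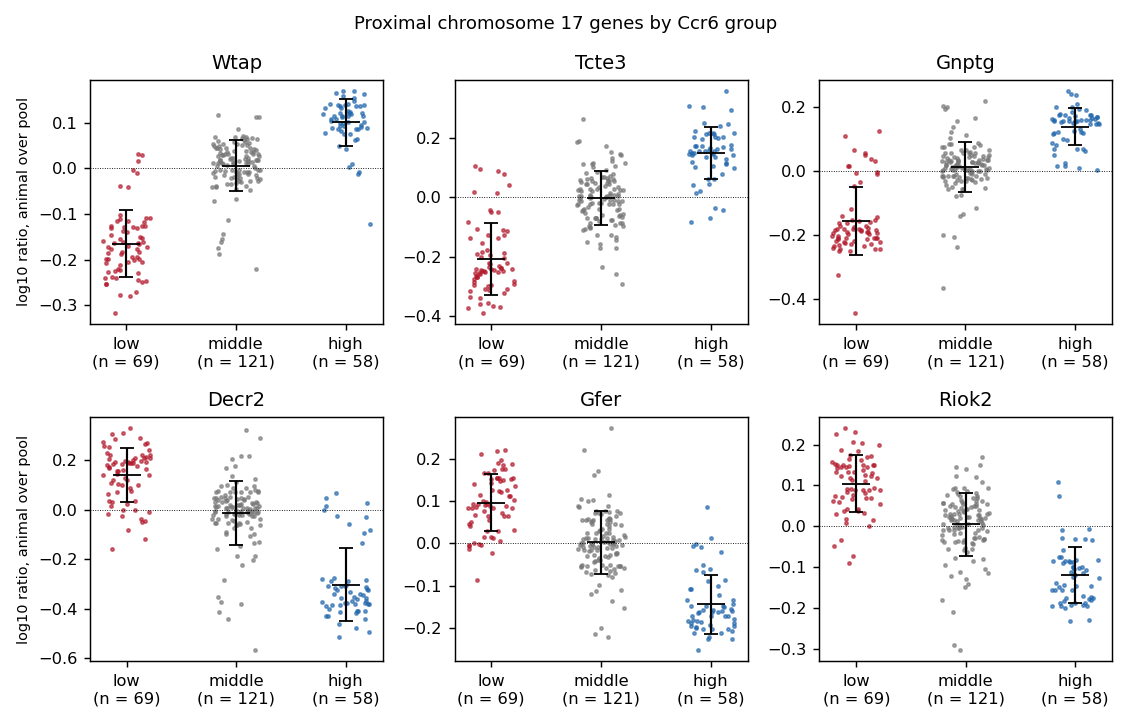
Log10 ratio to the pool in each animal for genes of chromosome 17 at places 14 to 117 from Ccr6, by low, middle and high group, with bars for the mean and SD. Wtap, Tcte3 and Gnptg are lowest in the low group, Decr2, Gfer and Riok2 are highest there, and the middle group lies between the outer groups in each panel.

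Of the 20 genes of smallest p on the chromosome, 13 were lower and 7 were higher in low animals. Among the others, the splicing factor Srrm2 was 1.68-fold lower (place 54; adjusted p = 4.5e-39), the Rac activator Tiam2 was 1.45-fold lower (place -13; 5.26e-41), and the fatty acid isomerase Eci1 was 1.28-fold higher (place 70; 3.63e-36). The ribosomal protein gene Rps2 was 1.34-fold lower (place 84; 1.98e-50), but 13 probes named it, with differences between -0.258 and 0.186, and with the pseudogene Rps2-ps9 (1.55-fold lower) it shares near-identical sequence, so its level is uncertain. The neuropeptide gene Npw was 1.32-fold lower and the acetyl-CoA acetyltransferase gene Acat3 1.21-fold lower.

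Farther along, 7 of 39 measured MHC region genes were higher in low animals and 9 were lower, 16 in all, all of them on chromosome 17, where 18.2% of genes passed. The list's median difference was -0.00132 log10 units, against 0.00110 for all genes tested, so its members did not move one way. H2-Bl (place 283), a class Ib gene, ranged between -0.658 and 0.0939 in low animals (median -0.407), -0.522 and 0.395 (median 0.0176) in middle and -0.415 and 0.386 (median 0.153) in high animals. It was 2.73-fold lower in low animals (adjusted p = 3.96e-28 in limma). H2-Q5 (place 266), also of class Ib, was 1.36-fold lower (adjusted p = 6e-26), while H2-T23 (place 282), which presents leader peptides to natural killer receptors, was 1.29-fold higher (adjusted p = 5.13e-13). The class Ia gene H2-K1 was 1.24-fold higher, and the peptide loading and processing genes Tapbp, Psmb8 and Psmb9 were 1.17-fold, 1.17-fold and 1.21-fold lower. The peptide transporter genes Tap1 and Tap2 of the same list did not pass (adjusted p = 0.816 and 0.974 in limma). Class I genes share sequence, so single probes may read several of them.

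**Figure D4:**
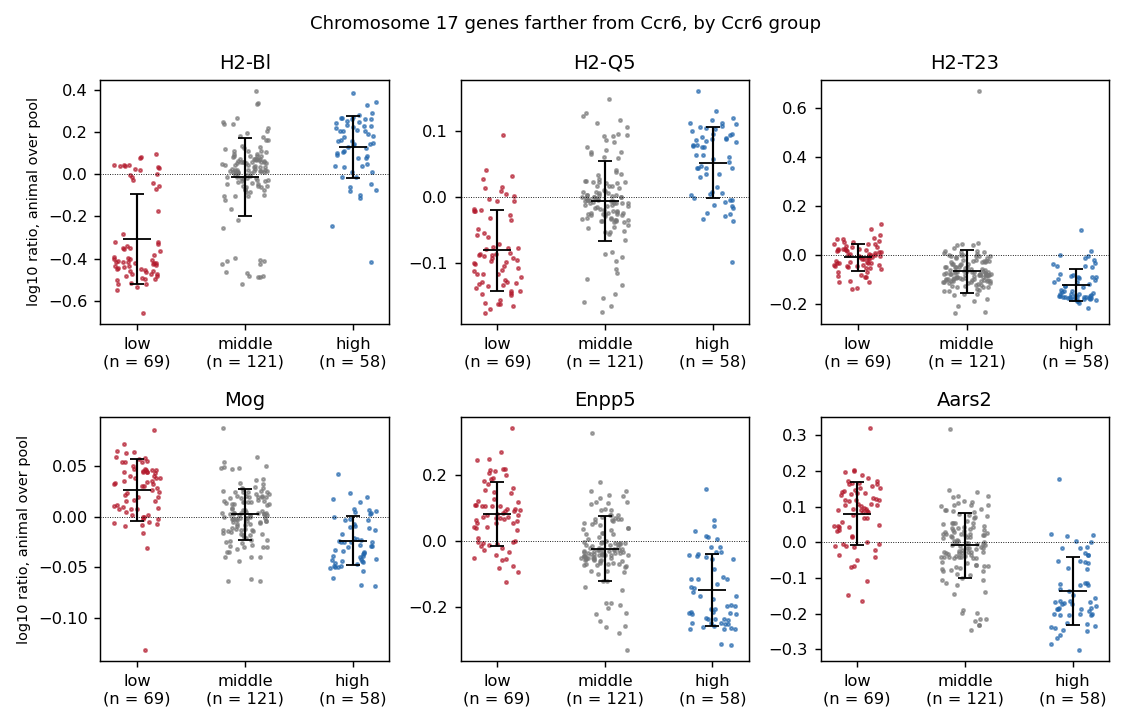
Log10 ratio to the pool for genes of chromosome 17 farther from Ccr6, by low, middle and high group, with bars for the mean and SD. H2-Bl and H2-Q5 are lowest in the low group, H2-T23, Mog, Enpp5 and Aars2 are highest there, and all ranges overlap between groups.

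Other genes far from Ccr6, of other function, passed as well. The cytochrome P450 gene Cyp4f14 (place 186), of leukotriene and fatty acid hydroxylation, was 1.51-fold higher (adjusted p = 4.3e-24). Enpp5 (place 327), a membrane-bound member of the nucleotide pyrophosphatase family, was 1.70-fold higher (adjusted p = 1.07e-26), and Aars2 (place 331), the mitochondrial alanyl-tRNA synthetase, was 1.65-fold higher (adjusted p = 2.82e-28). The myelin gene Mog (place 298) was 1.12-fold higher, with means of 0.0262 ± 0.0309 in low and -0.0238 ± 0.0244 in high animals (adjusted p = 2.07e-18). Mog was the only 1 of 8 oligodendrocyte markers to pass, and it is the 1 of them that lies on chromosome 17.

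Within groups, some genes varied together with neighbours in gene order, in the same or in opposite directions. For 13 of the 20 genes of smallest p on the chromosome, the gene of chromosome 17 whose deviations from the group means had the largest absolute r with its own lay within 25 places. Enpp5 and Adgrf4 had r = 0.727, H2-Bl and H2-Q5 r = 0.726, Riok2 and Zfp97 r = 0.756, and Gfer and Spsb3 r = 0.760, over 248 animals. Dynlt1b and Synj2 (r = -0.655) and Gnptg and Gfer (r = -0.608) moved oppositely. Other partners lay far off, such as Pla2g7 (place 323) for Eci1 (place 70; r = 0.518). Genes of other chromosomes also had chromosome 17 partners with r as large, such as Foxo3 with H2-M9 (0.864) and Cd3e with Cldn9 (0.748). The share of partners within 25 places was not computed over all genes of the chromosome, so no neighbour effect is read from these values. These are descriptions without a test, and the values of the animals share arrays and the pool.

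In all 38 named genes that passed, the mean of the middle animals lay between those of the outer groups. Most of these genes were named for a small p between low and high animals or for their r with Ccr6. That choice favours a middle mean in between, and the share over all genes was not computed, so no dose effect is read from this order. Compared with the middle animals, 28 genes of chromosome 17 were higher in the low animals and 22 were lower, 50 of 511 or 9.78%. Compared with the high animals, 29 were higher and 19 were lower in the middle animals, 48 of 511 or 9.39%. These comparisons share the middle animals and are given side by side: for Decr2 the steps were 0.153 for low minus middle and 0.290 for middle minus high, and for Tcte3 they were -0.204 and -0.153. On the other chromosomes 21 of 10199 genes (0.206%) passed between low and middle, and 18 (0.176%) between middle and high. The middle animals lay off the midpoint of low and high in 1 gene of chromosome 17, Wtap, which was 0.0383 above the midpoint (adjusted p = 0.0129 in limma; 0.196% of the chromosome's genes), and in 1 of the 10199 genes elsewhere (0.0098%), Sit1, 0.0547 above it (adjusted p = 0.0278). At an unadjusted p under 0.05 in limma there were 35 such genes of 511 on chromosome 17 and 737 of 10199 elsewhere, which are similar shares. On the linear scale, Wtap averaged 1.02 times the pool in middle animals, beside a midpoint of 0.981.

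Outside chromosome 17 a smaller share of genes passed, and the largest fold among the named genes placed there was that of Sit1. Sit1, an adaptor of T cell receptor signaling that the reference places on chromosome 4, ranged between -0.514 and 0.108 (median -0.205) in low, -0.331 and 0.315 (median 0.0114) in middle and -0.0915 and 0.356 (median 0.106) in high animals, and was 2.09-fold lower (adjusted p = 6.26e-49 in limma). Syt14, a synaptotagmin family member on chromosome 1, was 2.01-fold lower, with means of -0.201 ± 0.0868 in low and 0.103 ± 0.0849 in high animals. Fgfr2 (chromosome 7), a receptor for fibroblast growth factors, was 1.76-fold lower, and Dvl3 (chromosome 16), a transducer of Wnt signals, was 1.43-fold higher. Foxo3, a stress response transcription factor, was 1.39-fold lower, and Atg4d, an autophagy protease, was 1.24-fold lower. Trip12, a ubiquitin ligase, was 1.34-fold lower, but its 2 probes had differences of -0.258 and 0.00218. The gene names come from the platform's old annotation, the probe sequences were not analysed here, and whether a probe reads a transcript of chromosome 17 was not tested.

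Probes whose gene symbol is in capitals carry the symbol of another species, and 797 genes could not be placed by a mouse gene ID. Of these 797, 15 passed (1.88%). Among the 797, 44 carry a symbol that matches a gene of chromosome 17, of which 7 passed (15.9%), beside 18.2% of the genes placed on that chromosome. RNF151, whose symbol matches a ring finger gene of chromosome 17, was 2.62-fold lower (adjusted p = 8.64e-26), with 1 low animal at the lower limit of the scale. PHLPPL, which by its symbol is a phosphatase gene, was 1.57-fold lower. Fndc1, whose symbol also matches a gene of chromosome 17, was 1.2-fold lower, and its 2 probes had low minus high differences of -0.169 and 0.00695.

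**Figure D5:**
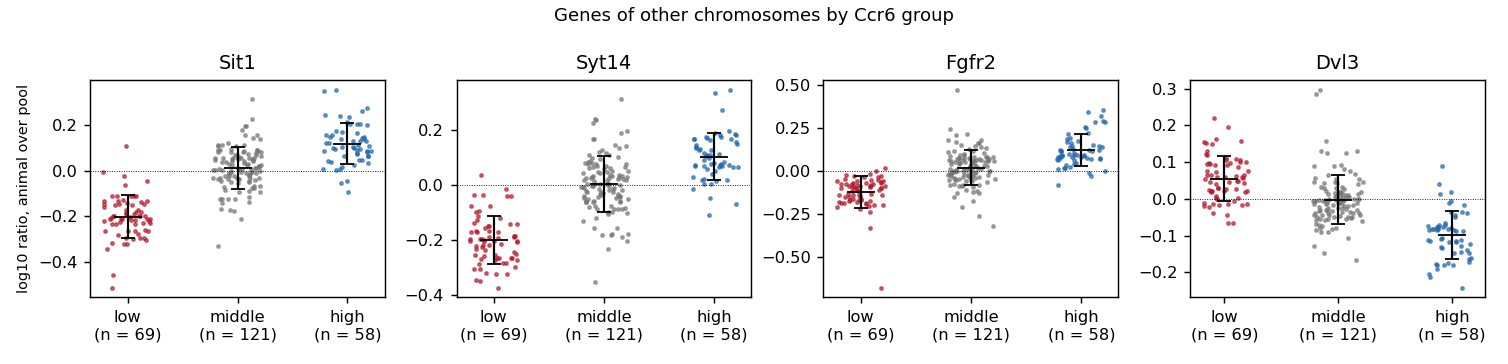
Log10 ratio to the pool in each animal for genes of other chromosomes, by low, middle and high group, with bars for the mean and SD. Sit1, Syt14 and Fgfr2 are lowest and Dvl3 is highest in the low group, and the ranges of the groups overlap.

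No measured member of the lists for cell types in which Ccr6 is known passed, while Sit1, an adaptor of T cells outside these lists, did. In 17 of the 20 gene lists no member passed, in limma with adjustment over all genes. Of all genes 1.73% passed, and of genes of other chromosomes 0.892%. At these shares few or no calls are expected in short lists, so their absence says little about the cell types. In these 17 lists, 18 of 168 measured genes had an unadjusted p under 0.05, beside 1703 of all 11507 genes. They include 19 chemokine receptors, 34 chemokines, 8 B cell genes and 13 genes of T cells and Th17 cells, none of which lie on chromosome 17, and the 9 microglial genes, of which 1 does. Among the chemokine receptors the member of smallest p, Ackr4, averaged -0.0129 in low and -0.0286 in high animals (adjusted p = 0.279). Cd79a, of the B cell receptor, averaged 0.00784 in low and -0.00362 in high animals (adjusted p = 0.289), and Cd3e, of the T cell receptor, 0.00288 in low and -0.0122 in high animals (adjusted p = 0.286). The pituitary list had a median difference of 0.188 log10 units over 6 genes, with the mean of the list between -1.04 and 0.582 in low and between -0.993 and 0.589 in high animals; its member of smallest p, Tshb, had an adjusted p of 0.279. With the pituitary, cerebellum and red cell means as covariates, 91 genes of chromosome 17 passed, 88 of them among the 93. In the cerebellum list the median difference was 0.0519, and Pvalb had an adjusted p of 0.0589. All 9 microglial genes were lower in low animals (median -0.0237) and all 8 neutrophil genes were higher (median 0.0357), beside a median of 0.00110 over all genes. None of them passed, and the shift of a list as a whole was not tested. Apoe, the gene that is null in all animals, averaged 0.000683 in low and -0.00573 in high animals (adjusted p = 0.695).

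Among the 31 measured genes on the list of Ccr6 neighbours and t-complex genes, 5 were higher and 7 were lower in low animals, beside 18.2% of all genes of the chromosome, with a median difference of -0.00419 beside 0.00110 over all genes. Besides those already named, the superoxide dismutase Sod2 was 1.06-fold lower, the proteasome subunit Psmb1 was 1.13-fold lower, and Pdcd2 was 1.07-fold higher. The t-complex genes Tcte1 and Tcp11 were higher in low animals, by 1.09-fold (adjusted p = 0.0215) and 1.04-fold (adjusted p = 0.0311), while Tcte3 was lower. By absolute correlation with Ccr6 over the 248 animals, the 10 closest genes were Wtap, Sit1, Syt14, Rps2, Tcte3, Gnptg, Dynlt1b, Plg, Srrm2 and Trip12. Because the low animals stand apart from the rest in Ccr6, no coefficient over all animals is given. Within the low, middle and high groups, r with Ccr6 was -0.229, 0.165 and 0.175 for Wtap and -0.0848, 0.276 and 0.296 for Sit1, which is weak in all 3.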

How the data were processed

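The authors deposited 1 log10 ratio of animal to pool for each probe and array. Per the labels, animal RNA carried Cy3 and the pool Cy5; how the scanner signals were corrected and normalized is not stated in these sources. Base and direction were read from the values: Eif2s3y and Kdm5d averaged 0.284 and 0.302 in their upper components, near the log10 of 2 (0.301). The scale ended at -2 and 2, with 113 and 83 values at these limits, and 0.710% of values were missing. Title and source name disagree on the animal number of 1 sample, which was taken by its source name.

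Of 23388 probes, 13645 carried 1 gene symbol. Those measured on at least 90% of arrays were averaged into 11508 genes, missing values being set to the probe's mean over animals. Genes were placed through mouse gene IDs (RefSeq, GRCm38.p6), used for order alone except for the promoter windows: 511 tested genes lay on chromosome 17, 10199 elsewhere and 797 were not placed. Values turned to log2 were fitted in limma 3.58.1 (R 4.3.3; lmFit, eBayes, 3 groups, two-sided) with Benjamini-Hochberg adjustment over 11507 genes, and differences are printed as log10. Ccr6 was not tested. Each animal has 1 array, so p-values measure the spread between animals, technical spread included; the number of arrays limits the precision and signal over background is unknown.

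The rule named the 20 genes of smallest p and the 10 genes on either side of Ccr6 on chromosome 17, the genes where middle animals lay off the midpoint, the farthest called genes, the 10 genes of smallest p elsewhere, the 10 closest to Ccr6, up to 4 called members of each list or else the member of smallest p, Eif2s3y, Kdm5d and Apoe; further list members and Xdh, Adgrf4, Zfp97 and Spsb3 were named after their values were seen. Groups, genes and the 20 lists were chosen with earlier results of these data known. The alternatives changed the filter on probes, the filling of gaps, the scaling, the prior, the limits on Ccr6, the animals and the covariates.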

Additional observations from a re-analysis of the deposited data

How the results depend on the processing

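The count of 93 genes on chromosome 17 ran between 65 and 108 over 17 alternatives, within 1.5 times throughout; 65 and 71 came from the animals of the upper and lower numbers alone, 84 from adding animal 144, and 74 from stricter Ccr6 limits. The count of 91 on other chromosomes ran between 68 and 133, except among animals of the lower numbers (33) and of the upper numbers (30), where fewer animals entered. Of the 133 genes of other chromosomes in a regression on the Ccr6 value, 60 were among the 91, and of the 68 under stricter limits 37 were. Without the 12 arrays of largest spread 70 genes of other chromosomes passed, 57 of them among the 91. The counts of chromosome 17 genes between low and middle ran between 48 and 55, those between middle and high between 45 and 53, and the count off the midpoint was 1 in each of 5 settings. For the 73 named genes, 359 of 365 combinations with 5 settings kept their direction and their side of the threshold. Under quantile normalization Gm7162 (-0.000438) and Mrgprh (-0.00479) changed sign, and neither passed; Map3k4, Tulp4 and Slc4a1 passed in at least 1 setting, and the cause was not tested. No paired analysis was possible because the labels give 1 group of animals whose numbers pair none of them. Missing batch, sex and genotype labels limit all comparisons.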

Other observations

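Probes without a single gene symbol carried differences as well. Of 9609 tested, 160 passed (1.67%), with adjustment over 23052 probes in limma, 61 of them with a fold of at least 1.2. The largest was 9.03-fold lower in low animals: it ranged between -1.09 and 0.0643 in low animals (median -0.882), between -0.906 and 0.336 in middle animals (median 0.0224) and between -0.103 and 0.391 in high animals (median 0.266), with an adjusted p of 5.60e-58. Its low and high ranges overlapped. The probe of smallest p was 1.40-fold higher in low animals, with means of 0.0710 ± 0.0365 in low and -0.0738 ± 0.0315 in high animals (SD, n = 69 and 58; adjusted p = 6.64e-64). The genes these probes read were not analysed here.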
